A study of Mus musculus with 3 samples.

Results

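The list held 10 genes of fat cell formation in mouse back skin: the transcription factors Pparg, Cebpa, Cebpb, Cebpd and Zfp423, and the adipocyte genes Fabp4, Lpl, Adipoq, Plin1 and Car3. They were taken by name from the rows of the count matrix, and 9 of the 10 were found among 19165 genes. Cebpd was not analysed here. The levels of the 9 genes were followed across 3 developmental stages and across cell classes, with endothelial and epithelial cells described as well as dermal cells because Pparg and Fabp4 are also used there.

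The skin came from male C57BL/6 mice with no engineered allele or treatment, and single cells were captured in droplets at E13.5, E16.5 and P0. There was 1 library per stage, made from skin of several animals put together, so that animals cannot be told apart. The E13.5 and E16.5 skin was digested with trypsin and the P0 skin with collagenase IV, so that stage, enzyme and library cannot be told apart, and no test between stages was possible. The matrix held 5962, 5208 and 5065 cells at E13.5, E16.5 and P0, with a median of 7066.5, 11021 and 6797 unique molecular identifiers (UMIs, counts of captured transcript molecules) per cell.

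Adipocytes arise from fibroblast-like precursors in the lower dermis. C/EBPβ acts early in this program and is followed by PPARγ and C/EBPα, which sustain each other and switch on the genes of lipid uptake, binding and storage, while ZFP423 marks and commits preadipocytes. Outside fat, PPARγ and FABP4 are used by capillary endothelium that handles fatty acids, PPARγ by sebocytes, C/EBPα and C/EBPβ by differentiating keratinocytes, and C/EBPβ by macrophages.

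Cell classes were set by clustering each library without the listed genes and naming clusters from marker genes that exclude them, so names are given as "-like". The classes used most were dermal-like (2176, 2138 and 2209 cells at E13.5, E16.5 and P0), endothelial-like (151, 307 and 255) and epithelial-like cells (497, 867 and 1588). Schwann-like cells (221, 109 and 99 cells, with median depths of 7539, 10604 and 5048 UMIs) served as the class that should lack adipocyte transcripts. They carried more of the 10 dermal markers than endothelial-like or epithelial-like cells did, at 3915, 7856 and 9566 CPM summed against 2913, 2246 and 2332 CPM and 2800, 3965 and 2686 CPM. At E13.5, 23 of the 221 Schwann-like cells came from a cluster with no Schwann marker among its 10 leading genes. Some clusters stood apart. Clusters closest to the dermal markers but not passing the naming rule were set aside, with 143, 1148 and 325 cells, of which the E16.5 clusters were 22.0% of that library. Sub-clusters with at least 1 marker of another class among their 10 leading genes are called mixed, and some had only 1 such marker. They held 683, 190 and 104 dermal-like and 271, 211 and 645 epithelial-like cells. In addition, 115 cell barcodes occurred in more than 1 library. The doublet caller marked 0, 84 and 106 cells, and its 0 at E13.5 was taken as a failed call.

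Levels are given as UMIs of a gene per 1000000 UMIs of the class (CPM). Brackets hold exact 95% Poisson intervals for levels and exact 95% binomial intervals for shares of cells, and they cover counting error only. A difference is the log2 ratio of 2 levels after 10 CPM was added to each, which understates the change of low genes. A gene was called past the fold at a log2 difference of at least 1 in size with at least 50 UMIs in the compared groups together. This is a rule of size and not a test.

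On the GRCm38 annotation, the factor genes lie at chr6:115360951-115490399 for Pparg, chr7:35119293-35121928 for Cebpa, chr2:167688915-167690418 for Cebpb and chr8:87661810-87959595 for Zfp423. Of the adipocyte genes, Fabp4 lies at chr3:10204088-10208576, Car3 at chr3:14863512-14872523, Lpl at chr8:68880491-68907448, Adipoq at chr16:23146536-23158028 and Plin1 at chr7:79720218-79732903. RefSeq promoter entries were matched for 6 of the 9 genes. The windows of 3 genes are shown because Adipoq and Plin1 were counted together, mostly in 1 small group of cells, and because Pparg is the central factor of the program. Each run is the 250 bases before a RefSeq start, 5′ to 3′ on the gene's strand, and capitals mark matches on either strand to the motifs TTNCNNAA (a loose form of the palindrome bound by C/EBP dimers), CCAAT or TATAAA.
Adipoq, chr16:23146286-23146535, plus strand: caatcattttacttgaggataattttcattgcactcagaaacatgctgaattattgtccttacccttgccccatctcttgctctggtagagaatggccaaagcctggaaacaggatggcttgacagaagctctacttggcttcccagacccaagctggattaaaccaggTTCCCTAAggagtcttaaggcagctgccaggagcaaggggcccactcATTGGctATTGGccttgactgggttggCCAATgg
Plin1, chr7:79732777-79733026, minus strand: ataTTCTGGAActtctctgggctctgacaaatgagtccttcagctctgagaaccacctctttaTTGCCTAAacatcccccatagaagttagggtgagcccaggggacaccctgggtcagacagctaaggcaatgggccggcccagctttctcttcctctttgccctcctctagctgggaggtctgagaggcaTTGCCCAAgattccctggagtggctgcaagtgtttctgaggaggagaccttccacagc
Pparg, the most downstream of its 3 listed starts, chr6:115421816-115422065, plus strand: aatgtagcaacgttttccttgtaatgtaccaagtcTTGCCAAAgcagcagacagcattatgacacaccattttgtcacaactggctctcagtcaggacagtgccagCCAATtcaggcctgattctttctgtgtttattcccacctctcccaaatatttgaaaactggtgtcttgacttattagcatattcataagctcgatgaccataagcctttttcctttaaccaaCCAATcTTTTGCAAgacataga
The Adipoq window held 1 match to TTNCNNAA at 74 to 81 bases before the start, the Plin1 window 3, and the Pparg window 2, at 9 to 16 and 208 to 215 bases before the start. Such matches are common, since 36.8% of 32851 RefSeq promoters of this length held TTNCNNAA, 33.8% held CCAAT and 12.4% held TATAAA. The pattern AGGNCANAGGNCA, a direct repeat of the kind bound by PPARγ with RXR, was in 0.338% of promoters and in none of the members' windows. The counts are per gene and do not tell the 3 Pparg starts apart.

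In dermal-like cells, 3 of the 4 measured factors were higher at E16.5 than at E13.5 and then went separate ways, whereas the adipocyte genes Adipoq, Plin1 and Car3 were near 0 until P0. Pparg, the nuclear receptor at the centre of adipogenesis, was at 1.99 CPM (1.41 to 2.71) at E13.5, 25.4 CPM (23.5 to 27.5) at E16.5 and 17.3 CPM (15.2 to 19.5) at P0. Its level was thus lowest at the first stage. The E16.5 and P0 intervals of Pparg, which cover counting error only, did not overlap. The log2 difference between these 2 libraries was -0.38, within the fold. Cebpa, its partner in late differentiation, was at 3.11 CPM (2.38 to 3.99), then 33.9 CPM (31.7 to 36.3), then 102 CPM (97.4 to 108), so that each stage lay above the last. Cebpb, the early factor, was at 32.9 CPM (30.4 to 35.6), 141 CPM (136 to 146) and 44.7 CPM (41.3 to 48.2), highest in the middle stage. Zfp423, a zinc finger factor of committed preadipocytes, was at 12.7 CPM (11.2 to 14.4), 10.9 CPM (9.63 to 12.3) and 4.35 CPM (3.36 to 5.55). The first pair of Zfp423 intervals overlapped and the P0 level was the lowest of the 3. Zfp423 was not confined to dermal-like cells. In endothelial-like cells it was at 16.29, 14.59 and 13.49 CPM, within the fold of dermal-like cells at each stage. The E13.5 endothelial-like interval of 10.83 to 23.55 CPM held the dermal-like level. At E13.5 neural-like and cartilage and tendon-like cells had more Zfp423, at 26.4 and 24.1 CPM without the highest cell of each. In epithelial-like cells Zfp423 was lower than in dermal-like cells, at 7.355, 1.962 and 0.434 CPM. At E13.5 the level in 198 Schwann-like cells with a Schwann marker among their cluster's leading genes was 14.1 CPM (9.37 to 20.4). This interval held the dermal-like level. Schwann-like cells had 6 and 0 Zfp423 UMIs at E16.5 and P0. The dermal-like class leaves out the 1148 set-aside E16.5 cells closest to the dermal markers, where all 4 factors were lower. With the highest cell for each gene left out, these set-aside cells had Pparg at 7.90 CPM and Cebpa at 20.5 CPM. Their Cebpb was at 99.7 CPM and their Zfp423 at 4.07 CPM. In the 325 set-aside P0 cells Pparg was at 7.21 CPM on the same measure.

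Pparg UMIs were found in 1.61%, 22.0% and 8.06% of dermal-like cells at E13.5, E16.5 and P0, and after thinning each cell to 3500 UMIs in 0.505%, 7.95% and 3.98%. In Schwann-like cells the shares were 0%, 1.83% and 1.01%. Cebpa UMIs were in 2.67%, 29.9% and 27.8% of dermal-like cells, against 2.26%, 15.6% and 6.06% of Schwann-like cells, so that the E13.5 shares were close. Cebpb UMIs were in 67.7% of dermal-like cells at E16.5 (65.7 to 69.7; 35.5% thinned), against 32.1% of Schwann-like cells (10.1% thinned).

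Fabp4, which binds fatty acids in the cytoplasm, was in the dermal-like class at 0.815 CPM (0.466 to 1.32) at E13.5, 32.9 CPM (30.7 to 35.2) at E16.5 and 1249 CPM (1232 to 1267) at P0. Lpl, the secreted lipase that frees fatty acids from lipoproteins, was at 9.47 CPM (8.16 to 10.9), 62.7 CPM (59.7 to 65.9) and 368 CPM (359 to 378). Both genes were therefore above their E13.5 level in dermal-like cells at E16.5, when no Adipoq UMI had been counted. Adipoq, the adipocyte hormone adiponectin, had 0 UMIs in the E13.5 and E16.5 dermal-like cells, which allows up to 0.153 and 0.121 CPM at 3 counts, and 3247 UMIs at P0 (217 CPM, 210 to 225). Plin1, the coat protein of lipid droplets, had 3, 6 and 316 UMIs, or 0.153, 0.241 and 21.2 CPM. Car3, a carbonic anhydrase abundant in fat and muscle, had 27, 1 and 11420 UMIs, or 1.38, 0.0402 and 765 CPM. The 3 genes of the mature adipocyte thus shared a level near 0 at both embryonic stages.

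**Figure D1:**
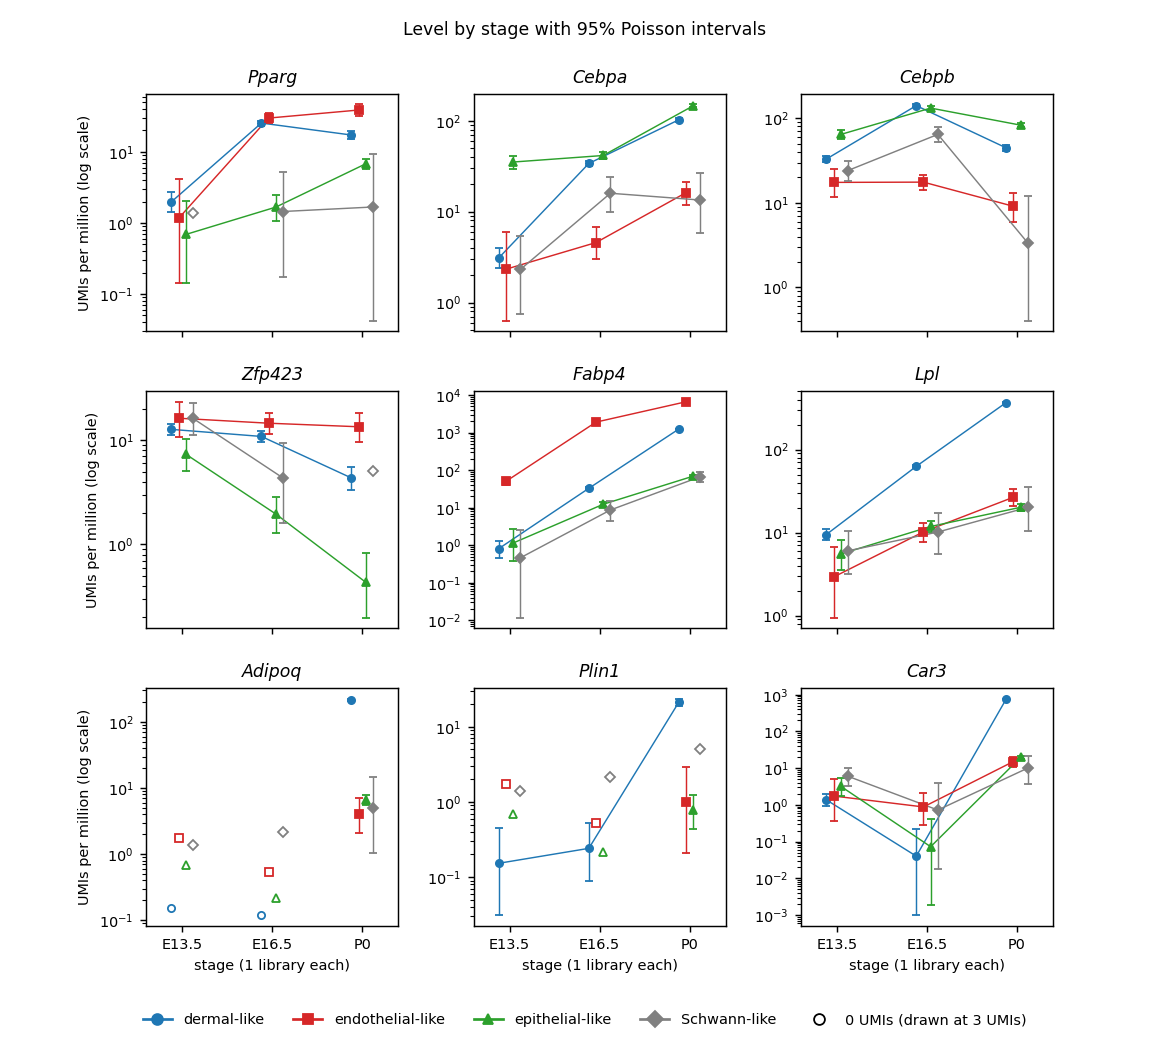
Level of each of the 9 genes in CPM (log axis) at E13.5, E16.5 and P0 in dermal-like, endothelial-like, epithelial-like and Schwann-like cells, 1 library per stage, with bars for exact 95% Poisson intervals. Open symbols mark 0 UMIs and are drawn at the level of 3 UMIs. In dermal-like cells Cebpb was highest at E16.5 (141 CPM), and Adipoq was counted at P0 only.

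Between E13.5 and E16.5, 5 of the 6 genes with enough UMIs in dermal-like cells were higher past the fold (2.05% of all 12582 genes compared were). The log2 differences were 1.56 for Pparg, 1.75 for Cebpa, 1.82 for Cebpb, 1.99 for Fabp4 and 1.90 for Lpl, and Zfp423 differed by -0.12. Of the 18 other regulators of adipogenesis listed, 17 could be compared, and 2 were higher and 1 lower. The listed genes of response to tissue dissociation, immediate early and heat shock genes, moved over the same stages: 11 of 14 were higher at E16.5, and their summed level in dermal-like cells was 768.8, 2683 and 6344 CPM at E13.5, E16.5 and P0. The sum was highest at P0, where Cebpb was lower than at E16.5, and the part of dissociation in the member levels was not tested.

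Between E16.5 and P0, 6 of the 9 genes were higher past the fold in dermal-like cells (1.99% of 12190 genes were) and 1 was lower (2.66%). Cebpa differed by 1.36, Fabp4 by 4.88, Lpl by 2.38, Adipoq by 4.51, Plin1 by 1.61 and Car3 by 6.27, while Cebpb was lower at -1.47. Among cells with at least 2500 genes, Cebpb differed by -0.86 and was within the fold. Pparg (-0.38) and Zfp423 (-0.54) stayed within the fold. As a ratio of levels, Adipoq was at least 1803-fold higher at P0 than the 3-count limit at E16.5, and Car3 was 19020-fold higher with a counting interval of 3414 to 751500, since its E16.5 level rests on 1 UMI. Much of this lay in 43 cells. Without the adipocyte-like cells described below, 4 genes were higher (1.74% of 12117 genes were), namely Fabp4 at 3.34, Lpl at 1.65, Adipoq at 1.11 and Car3 at 1.53. Cebpa then fell just within the fold at 0.97, Cebpb was lower at -1.61 (2.67%), and Plin1 had too few UMIs. In the remaining dermal-like cells at P0, the levels of Adipoq (11.6 CPM) and Car3 (19.0 CPM) lay inside the Schwann-like intervals of 1.04 to 14.7 and 3.69 to 21.9 CPM, whereas Fabp4 (424 CPM) lay above the Schwann-like interval of 47.9 to 91.4 CPM. The Schwann-like intervals of Adipoq and Car3 are wide, since they rest on 3 and 6 UMIs. In endothelial-like cells Adipoq was lower, at 4.05 CPM (2.09 to 7.07), and the Car3 interval of 11.1 to 20.3 CPM held the dermal-like level.

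At P0, 1 sub-cluster of 43 dermal-like cells had the adipocyte markers, and it carried most of the Adipoq, Plin1 and Car3 transcripts of the library. It was named from 12 of 13 adipocyte markers other than the members, which include Cfd, Retn and Cidec, and its cells were deep, with a median of 15619 UMIs. Car3 was at 17100 CPM (16780 to 17420), Fabp4 at 19320 CPM (18980 to 19660) and Adipoq at 4725 CPM (4559 to 4895). Lpl was at 3670 CPM (3524 to 3820), Cebpa at 678 CPM (616 to 744) and Plin1 at 419 CPM (370 to 471). Pparg was at 135 CPM (108 to 166), Cebpb at 155 CPM (126 to 188) and Zfp423 at 7.67 CPM (2.49 to 17.9). The 9 genes together made up 4.62% of all UMIs of these cells.

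UMIs of the adipocyte genes were counted in each of the 43 cells, while those of the factors were not. Median UMIs per cell were 248 for Fabp4, 205 for Car3 and 6 for Plin1. They were 8 for Cebpa, 2 for Pparg, 1 for Cebpb and 0 for Zfp423. At such low counts, 0 UMIs of a factor in a cell does not show that it was absent. Adipoq, Plin1, Car3, Fabp4 and Lpl UMIs were counted in all 43 cells, Cebpa in 42, Pparg in 35, Cebpb in 29 and Zfp423 in 5. Per 10000 UMIs of a cell, Adipoq ranged from 11.6 to 102 with a median of 44.8, and Car3 from 21.7 to 365 with a median of 149.6. Fabp4 ranged from 52.6 to 404 with a median of 157, and Plin1 from 0.553 to 14.5 with a median of 3.90. The spread from the lowest to the highest cell was thus several-fold for each of these genes, within cells of 1 library. No sub-cluster with this name was found at E13.5 or E16.5.

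The 43 cells held 92.9% of all Car3 UMIs of the P0 library, 89.7% of Adipoq, 80.3% of Plin1, 37.1% of Lpl, 30.2% of Fabp4 and 14.8% of Pparg. Fabp4, Lpl and Pparg were therefore mostly counted in other cells. Against the other dermal-like cells, 8 of the 9 genes were higher past the fold (7.65% of 10302 genes were), from 1.73 for Cebpb to 9.20 for Car3, and Zfp423 differed by 0.32. These values are a description of a cluster and not a test. Of the listed genes of lipid synthesis and storage, 13 of 17 were higher and 1 was lower, with Scd1, a desaturase of fatty acids, at 6.33 and Cd36, a fatty acid transporter, at 4.12. Of the other regulators of adipogenesis, 4 of 12 were higher and none lower. These were Nr1h3, Rxra, Insr and Srebf1.

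**Figure D2:**
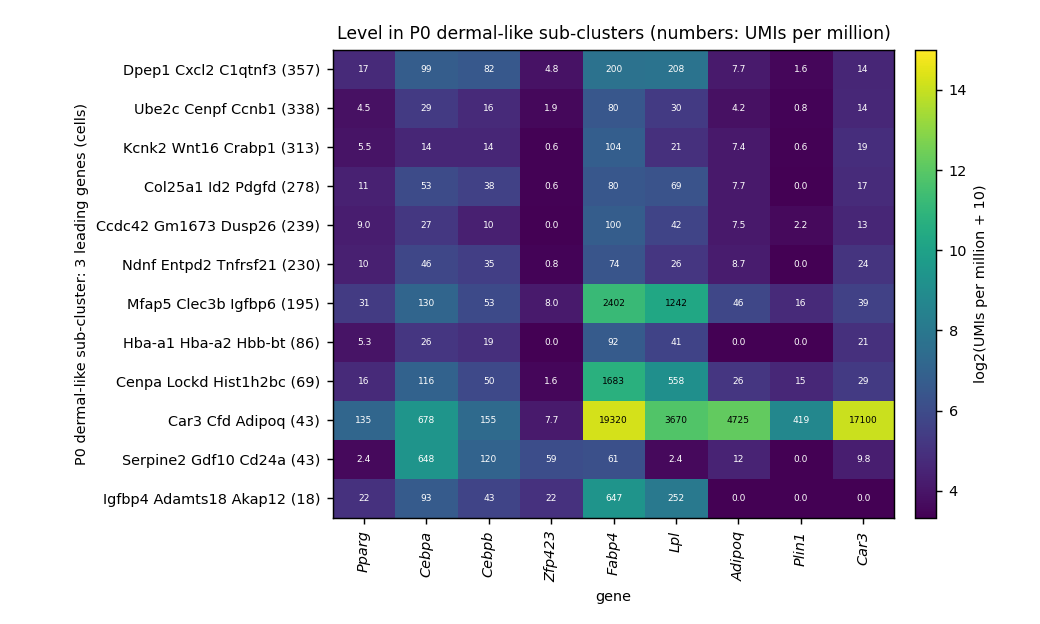
Level of each of the 9 genes in the 12 dermal-like sub-clusters at P0, each named by its 3 leading genes with its number of cells. Numbers are CPM and colour is log2(CPM + 10), 1 library. The adipocyte-like sub-cluster, led by Car3, Cfd and Adipoq (43 cells), lies highest for Adipoq, Plin1, Car3, Fabp4, Lpl and Pparg, and the sub-cluster led by Mfap5 and Clec3b (195 cells) is next for Fabp4 (2402 CPM) and Lpl (1242 CPM).

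Adipoq UMIs were found in 287 of 5065 cells at P0 (5.67%, 5.05 to 6.34; 2.96% after thinning) and in none at E13.5 or E16.5, which allows shares of up to 0.0503% and 0.0576%. Schwann-like cells had a share of 3.03% at P0. Outside the adipocyte-like cells 244 cells had an Adipoq UMI, 221 of them with a single UMI, and 3 had 10 or more. Of these 3, 2 were in the dermal-like sub-cluster led by Mfap5 and Clec3b, with 13 and 20 Adipoq UMIs, and 1 was an epithelial-like cell of 44965 UMIs with 40 Adipoq and 189 Car3 UMIs, in a sub-cluster led by collagen genes. The ratio of Car3 to Adipoq UMIs was 3.62 in adipocyte-like cells, 3.75 in endothelial-like, 3.0 in epithelial-like and 2.00 in Schwann-like cells, and 0.841 in the Mfap5 and Clec3b sub-cluster. Without its 2 cells of 13 and 20 Adipoq UMIs the last ratio was 1.42. In the other groups the ratio ran from 0.8 in the sub-cluster of dermal papilla-like cells and 1.57 in melanocyte-like cells to 5.75 in pericyte-like and 6.5 in macrophage-like cells, each on 7 Adipoq UMIs or fewer, and it was 3.25 in lymphatic-like cells on 8. The ratios outside the adipocyte-like cells rest on 3 Adipoq UMIs in Schwann-like cells, 12 in endothelial-like and 136 in epithelial-like cells, and on 69 in the Mfap5 and Clec3b sub-cluster.

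A second group of dermal-like cells at P0 had Fabp4 and Lpl without most of the mature adipocyte genes. This was the sub-cluster led by Mfap5 and Clec3b, called D6 below, with 195 cells, a median of 7313 UMIs and 6 of 7 markers of deep dermis and fascia. It was singled out after its values were seen. Fabp4 was at 2402 CPM (2325 to 2482), Lpl at 1242 CPM (1187 to 1300), Pparg at 31.2 CPM (23.0 to 41.5) and Cebpa at 130 CPM (113 to 150). Adipoq was at 45.9 CPM (35.7 to 58.0), Plin1 at 15.9 CPM (10.2 to 23.7) and Car3 at 38.5 CPM (29.3 to 49.8), far under the adipocyte-like levels. Fabp4 UMIs were in 166 of 195 cells and Lpl UMIs in 158, but Adipoq UMIs in 18 and Plin1 UMIs in 12.

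**Figure D3:**
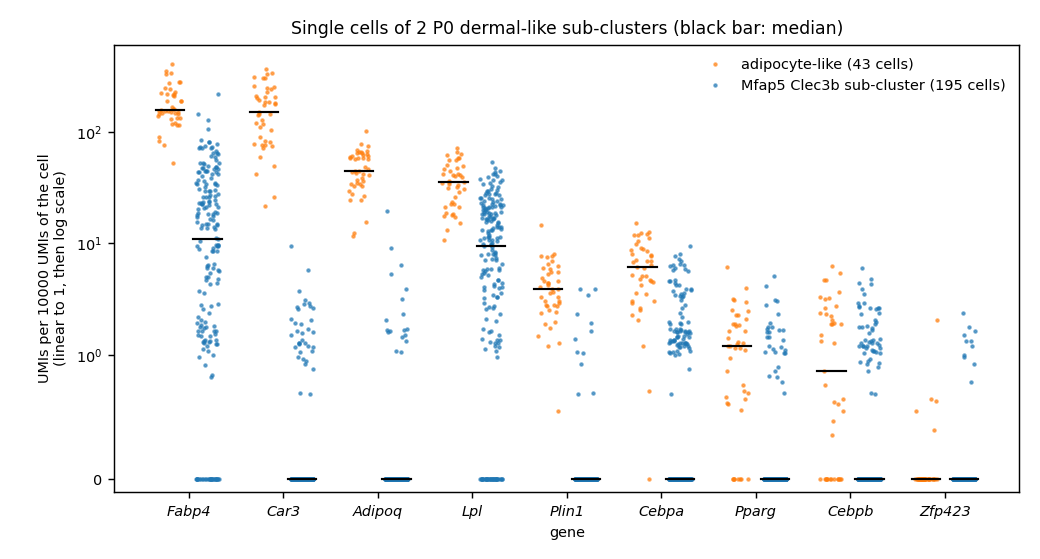
UMIs of each gene per 10000 UMIs of the cell (axis linear up to 1 and log above) in single cells of 2 dermal-like sub-clusters at P0, 1 point per cell with a bar at the median. The 43 adipocyte-like cells lie above 0 for Adipoq, Car3, Fabp4, Lpl and Plin1, while most of the 195 cells led by Mfap5 and Clec3b lie above 0 for Fabp4 and Lpl but at 0 for Adipoq, Plin1 and Car3.

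Set beside the other dermal-like cells without the adipocyte-like ones, D6 was higher past the fold for 4 of 8 genes (2.77% of 10149 genes were): Fabp4 at 3.58, Lpl at 3.55, Adipoq at 1.67 and Pparg at 1.07. The Adipoq difference rested on 2 cells that gave 33 of the 69 Adipoq UMIs, and without them it was 0.96, within the fold, while Fabp4 (3.57), Lpl (3.53) and Pparg (1.07) stayed past it. Cebpa was within the fold at 0.81. Of 9 inhibitors of adipogenesis compared, 3 were higher and none lower, and Dlk1, the preadipocyte surface protein that holds back differentiation, was at 8201 CPM in D6 against 1076 CPM in the rest. Of 4 late adipocyte genes compared, 1 was higher. The dissociation genes summed to 8731 CPM in D6 and 3309 CPM in adipocyte-like cells, with 6344 CPM in all dermal-like cells. The deep dermal sub-cluster D8 (69 cells, led by cell division genes) had the next levels, with Fabp4 at 1683 CPM and Lpl at 558 CPM.

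At E16.5 the dermal Pparg, Fabp4 and Lpl levels were highest in a sub-cluster that passed the naming rule for deep dermis and fascia. Sub-cluster D1 (238 cells, with 5 of 7 deep dermal and fascia markers) had Pparg at 56.0 CPM (47.6 to 65.5), Fabp4 at 89.0 CPM (78.3 to 101) and Lpl at 168 CPM (153 to 184). Fabp4 and Lpl were themselves among the leading genes of D1, so these levels describe the cluster. None of the deep dermal markers was among its leading genes. Another sub-cluster, D13 (38 cells), had 7 of 7 markers and shared the leading genes Mfap5 and Clec3b with D6. The member levels of D13 are not given here, and the name of D1 alone does not place these genes in fascia cells. Sub-cluster D3 (205 cells, unnamed) had Pparg at 45.5 CPM (37.7 to 54.4) but Fabp4 at 19.9 CPM (14.8 to 26.1). Pparg was a leading gene of D3, and its interval overlapped that of D1. D1 and D3 were singled out after the clusters were seen. In the dermal condensate-like sub-cluster D4 (195 cells), Pparg was lower than in D1, at 1.71 CPM (0.352 to 4.98), and Zfp423 was higher, at 29.6 CPM (22.1 to 38.8) against 13.1 CPM (9.24 to 18.1). At P0 the dermal papilla-like sub-cluster D10 (43 cells) had 58.7 CPM of Zfp423 (37.6 to 87.4) and 648 CPM of Cebpa (573 to 731), close to the Cebpa level of the adipocyte-like cells, with 2.45 CPM of Pparg (0.0620 to 13.6).

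Within single dermal-like cells at E16.5, Lpl UMIs were in 56.7% of the 471 cells with a Pparg UMI (52.1 to 61.2) and in 29.9% of the 1667 without (27.7 to 32.1). The corresponding shares for Fabp4 were 26.8% (22.8 to 31.0) and 18.5% (16.6 to 20.4). Cells with a Pparg UMI were deeper, with a median of 12444 against 10344 UMIs, and the part of depth in these shares was not tested.

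Over all cells of a library, 4 of 7 genes compared were higher past the fold at E16.5 than at E13.5, Pparg, Cebpa, Cebpb and Fabp4 (1.71% of 14935 genes were), and Car3 was lower at -1.02 (1.86%). With each cell weighing the same, the Car3 difference was -0.87, within the fold. At P0 against E16.5, 5 of 9 were higher and none lower (1.58% of 14471 higher). These sums also follow the mix of cells in each library.

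Endothelial-like cells held most Fabp4 of the embryonic skin, and their Fabp4 exceeded that of dermal-like cells at each stage. Fabp4 was at 50.6 CPM (40.5 to 62.5) at E13.5, 1914 CPM (1879 to 1951) at E16.5 and 6667 CPM (6575 to 6761) at P0, and UMIs were found in 25.2%, 93.5% and 83.9% of these cells (15.9%, 81.8% and 74.1% thinned). Schwann-like cells had 0.463, 8.70 and 67.1 CPM. The class held 54.4%, 88.8% and 47.4% of all Fabp4 UMIs of the libraries. At E13.5 the class also carried 43070 CPM of red blood cell genes, and its Fabp4 level rests on 87 UMIs. At E16.5 both endothelial-like clusters had Fabp4, the larger (288 cells) at 1995 CPM and the smaller (19 cells) at 335 CPM.

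Pparg in endothelial-like cells was at 1.16 CPM (0.141 to 4.2), 29.9 CPM (25.6 to 34.7) and 38.8 CPM (32 to 46.5) at E13.5, E16.5 and P0. It was counted in 1.32%, 38.1% and 30.6% of the cells (0%, 8.14% and 10.2% thinned). The E16.5 and P0 intervals overlapped, and both lay above the E13.5 interval and the Schwann-like levels of 1.45 and 1.68 CPM. From E13.5 to E16.5, 2 of 5 genes compared were higher past the fold, Fabp4 at 4.99 and Pparg at 1.84 (1.63% of 9199 genes were). From E16.5 to P0, Fabp4 at 1.80 and Car3 at 1.21 were higher out of 7 (2.69% of 9413), but the P0 Car3 level of 15.2 CPM lay within the Schwann-like interval. Lpl was low in this class, at 2.91, 10.2 and 26.6 CPM, near the Schwann-like 6.02, 10.2 and 20.1 CPM.

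Set against dermal-like cells, Fabp4 was higher in endothelial-like cells by 2.49 at E13.5, where 1 of 5 genes was past the fold upwards (3.85% of 11601 genes were). The Fabp4 difference was 5.49 at E16.5 (1 of 6; 6.11% of 11989) and 2.41 at P0 (1 of 9; 8.03% of 10941). At E16.5, Cebpa (-1.59), Cebpb (-2.45) and Lpl (-1.85) were lower (6.81%), and at P0 Cebpa (-2.10), Cebpb (-1.52), Lpl (-3.37), Adipoq (-4.02), Plin1 (-1.50) and Car3 (-4.94) were lower (6.99%). Without the 43 adipocyte-like cells, Adipoq (-0.62), Plin1 (-0.24) and Car3 (-0.21) were within the fold, while Cebpa (-1.72), Cebpb (-1.38) and Lpl (-2.63) stayed lower. Among cells with at least 2500 genes, the Fabp4 difference at P0 was 0.99, just within the fold. Under that setting the P0 dermal-like cells numbered 406 in place of 2209, while the adipocyte-like cells numbered 35 in place of 43. The dermal-like group thus held a larger share of adipocyte-like cells. Pparg differed by 0.17 at E16.5 and 0.84 at P0. Endothelial-like cells thus had Pparg and Fabp4 with Cebpa and Cebpb under the dermal levels. Of the listed genes of endothelial fatty acid handling, 6 of 11 were higher in endothelial-like cells at E16.5 and 7 of 11 at P0. Gpihbp1, which anchors lipoprotein lipase on capillaries, was at 178, 842 and 1786 CPM at E13.5, E16.5 and P0, and Cd36 was at 46.6, 549 and 1098 CPM.

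**Figure D4:**
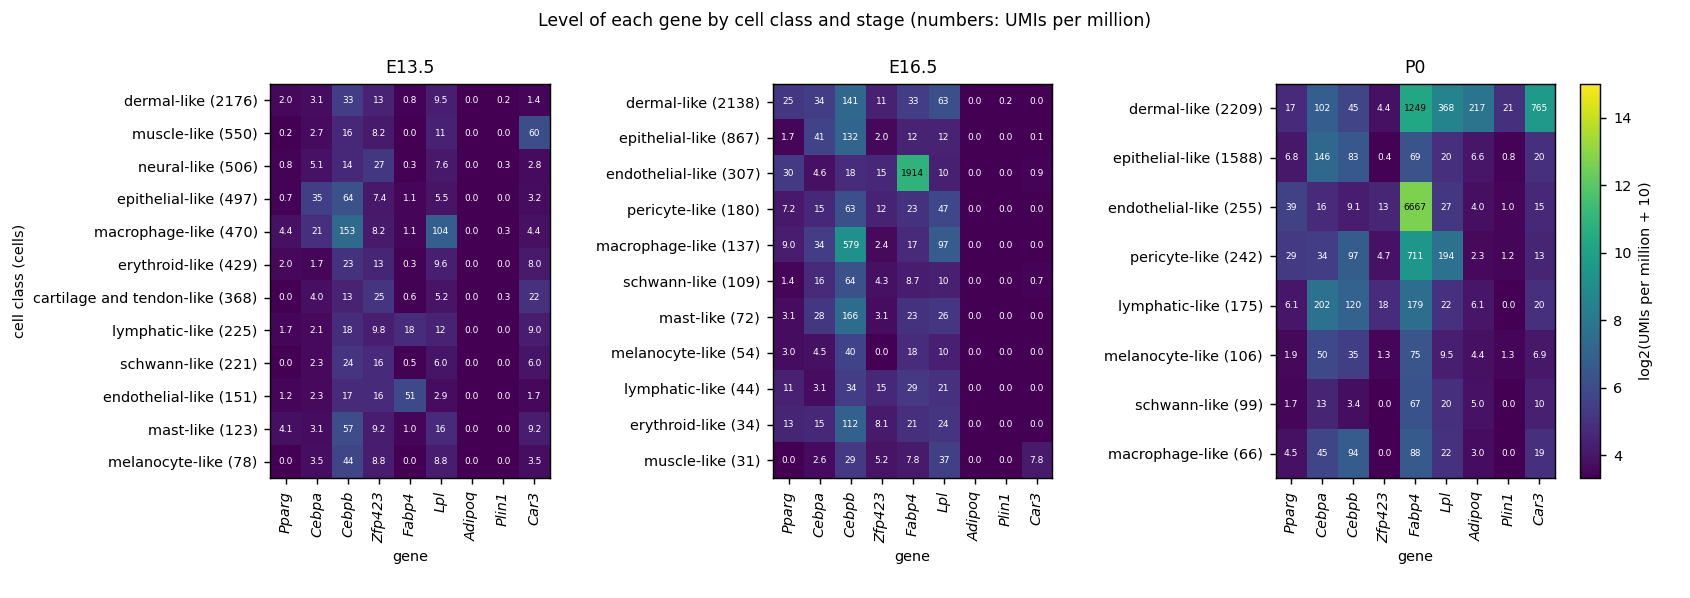
Level of each of the 9 genes in each named cell class (rows, with the number of cells) at each stage, 1 library per stage. Numbers are CPM and colour is log2(CPM + 10). Fabp4 is highest in endothelial-like cells at each stage (50.6, 1914 and 6667 CPM), and at E16.5 Cebpb reaches 579 CPM in the macrophage-like class.

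Epithelial-like cells had Cebpa and Cebpb, and at P0 Pparg was highest in a single sub-cluster of them. Cebpa was at 35.2 CPM (29.8 to 41.2) at E13.5, 41.5 CPM (38.2 to 45.0) at E16.5 and 146 CPM (141 to 151) at P0. Cebpb was at 64.3 CPM (57.0 to 72.3), 132 CPM (126 to 138) and 83.0 CPM (79.1 to 87.0), again highest at E16.5. Pparg was at 0.690 CPM (0.142 to 2.02), 1.67 CPM (1.06 to 2.51) and 6.80 CPM (5.72 to 8.02).

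From E13.5 to E16.5, 1 of 5 genes compared was higher past the fold in epithelial-like cells, Fabp4 at 1.0 (2.48% of 11114 genes were), and none with each cell weighing the same. From E16.5 to P0, 3 of 7 were, Cebpa at 1.60, Fabp4 at 1.83 and Car3 at 1.56 (2.23% of 11755). Fabp4 was at 1.15, 12.3 and 69.3 CPM in this class, close to the Schwann-like 0.463, 8.70 and 67.1 CPM. At P0, 1 cell gave 209 of the 1438 Fabp4 UMIs, and the level without that cell was 59.4 CPM. The part of background in these Fabp4 levels was not tested. Car3 at P0 was at 19.7 CPM, of which 1 cell gave 189 of 408 UMIs, and at 10.6 CPM without that cell, against 10.1 CPM in Schwann-like cells.

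Compared with dermal-like cells, Cebpa was higher by 1.79 at E13.5 (1 of 4 genes; 4.23% of 11944 were), and Pparg (-1.60) and Lpl (-1.74) were lower at E16.5 (2 of 6; 7.61% of 12302 lower). At P0, Fabp4 (-3.99), Lpl (-3.65), Adipoq (-3.78), Plin1 (-1.53) and Car3 (-4.71) were lower (5 of 9; 7.62% of 12122). Without the adipocyte-like cells Adipoq, Plin1 and Car3 were no longer past the fold, with Car3 at 0.03, while Fabp4 and Lpl stayed lower. Cebpa was highest in suprabasal-like cells at E13.5, at 116 CPM (90.3 to 146) in 52 cells. It was itself among the leading genes of that sub-cluster, so this level describes the cluster. Among the 3 suprabasal-like sub-clusters at P0, Cebpa was at 314 CPM (288 to 342) in the 125 cells led by Krt1 and Krt10. It was at 81.8 and 65.6 CPM in the others, of 187 and 147 cells, which were counted among the mixed sub-clusters. Of the 2 follicle-like sub-clusters at E16.5, that of 68 cells, counted among the mixed ones, had Cebpb at 462 CPM (427 to 499), and that of 125 cells at 79.1 CPM (66.1 to 94.0).

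The epithelial sub-cluster with the most Pparg at P0, called E5 below, held 126 cells with a median of 6966 UMIs, was led by Cyp2g1, Cidea, Mgst1 and Soat1, and passed the naming rule for upper follicle with 4 of 4 markers. It was chosen after its values were seen. Pparg was at 59.5 CPM (46.8 to 74.6), Cebpa at 423 CPM (388 to 461), Cebpb at 265 CPM (238 to 295) and Lpl at 80.2 CPM (65.3 to 97.4). E5 held 75 of the 141 epithelial-like Pparg UMIs, counted in 30 cells, and the highest cell had 19. Without that cell E5 held 56 of 122, or 45.9% in place of 53.2%, and its Pparg level was 46.3 CPM. Fabp4 (76.2 CPM), Adipoq (6.35 CPM) and Car3 (12.7 CPM) lay within the Schwann-like intervals, and Plin1 had 0 UMIs.

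Beside the other epithelial-like cells, E5 was higher past the fold for 4 of 7 genes (1.25% of 10790 genes were): Pparg at 2.38 (2.07 without its highest cell), Cebpa at 1.65, Cebpb at 1.76 and Lpl at 1.78. Fabp4 differed by 0.13. A sub-cluster led by collagen genes (115 cells), counted above among the mixed ones, had the next Lpl level at 63.6 CPM. Of the sebaceous genes listed, 7 of 9 compared were higher, among them Mgst1 at 3.39, Soat1, which esterifies cholesterol, at 2.79 and Scd1 at 2.64. Scd1, Mgst1 and Soat1 were leading genes of E5, so that this count is not independent of the cluster. The other upper follicle-like sub-cluster, E11 (74 cells, led by Krt79), had Pparg at 12.3 CPM (8.21 to 17.9).

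**Figure D5:**
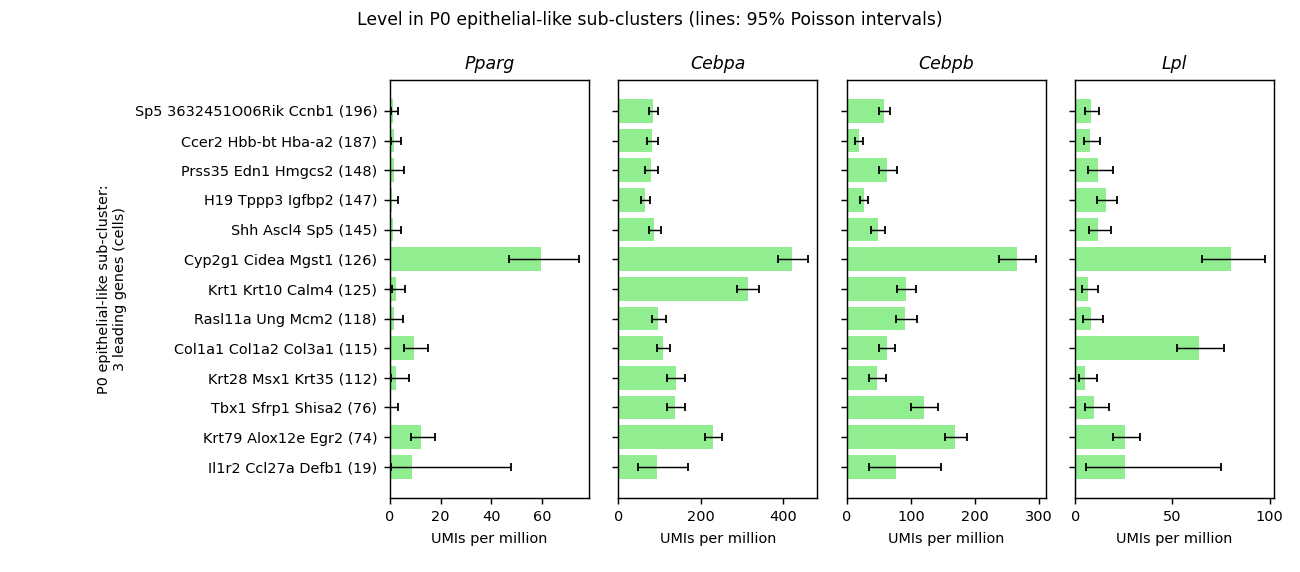
Level of Pparg, Cebpa, Cebpb and Lpl in CPM (bars, from 0) in the 13 epithelial-like sub-clusters at P0, each named by its 3 leading genes with its number of cells, and with lines for exact 95% Poisson intervals. The sub-cluster led by Cyp2g1, Cidea and Mgst1 (126 cells) lies highest for Pparg (59.5 CPM), Cebpa (423 CPM), Cebpb (265 CPM) and Lpl (80.2 CPM).

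Several members were also counted in other classes. Cebpb in macrophage-like cells was at 153 CPM (140 to 166), 579 CPM (543 to 617) and 94.1 CPM (72.3 to 120), above the dermal-like level at each stage, and had its highest level at E16.5 as in dermal-like and epithelial-like cells. The dissociation genes in macrophage-like cells summed to 1175, 4435 and 4895 CPM. Lpl in macrophage-like cells was at 104 CPM (93.7 to 115), 97.0 CPM (82.6 to 113) and 22.4 CPM (12.5 to 37.0), and at E13.5 these cells held 46.2% of all Lpl UMIs. Car3 at E13.5 lay mostly in muscle-like cells, at 60.1 CPM (54.0 to 66.7) and 61.8% of the Car3 UMIs, of which 1 cell gave 102 of 352.

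Fabp5, the epidermal relative of Fabp4 that lies 187.5 kb from it on chromosome 3, had a different distribution. In epithelial-like cells Fabp5 was at 914, 1786 and 374 CPM at E13.5, E16.5 and P0, and in endothelial-like cells at 308, 670 and 484 CPM. It was thus higher in epithelial-like than in endothelial-like cells at both embryonic stages, whereas Fabp4 was higher in endothelial-like cells at each stage.

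Genes with the most similar pattern were sought by Pearson correlation of log2(CPM + 10) over the 28 stage and class groups of at least 50 cells, which share their libraries by stage. Adipoq was closest to Cfd (0.996), Retn (0.989) and Cidec (0.979), Plin1 to Cidec (0.997) and Car3 to Cfd (0.878). These values rest on the P0 dermal-like group that holds the adipocyte-like cells. Fabp4 was closest to Ly6c1 (0.909), Cav1 (0.895) and Cav2 (0.888), and Pparg to Fabp4 (0.831). Cebpa was closest to Gli1 (0.847), Cebpb to Runx1 (0.826), Zfp423 to Hoxd4 (0.854) and Lpl to C1ra (0.774).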

How the data were processed

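Per the labels and the methods, dissociated back skin was captured on a 10x Genomics platform and the authors counted UMIs on the mm10 build with Cell Ranger 2.2.0 and used Seurat, keeping cells with at least 1750 genes and genes in at least 3 cells. The authors deposited 1 matrix of natural log values, ln(1 + UMIs per 10000 of the cell). The stage prefix of each cell name gave its library. Values were turned back into UMI counts per cell, which were whole within 0.001. The design had foreseen this.

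Each library was clustered with scanpy 1.11.5 (2000 variable genes without the members, 30 principal components, 15 neighbours, Leiden 0.10.2 at resolution 1). A cluster was named from at least 3 markers with a log2 difference of 1 or more over the 25th percentile of clusters. Dermal-like and epithelial-like cells were clustered again. Doublets were called with Scrublet and kept. UMIs were summed per class. With 1 library per stage, no p-value was computed. The sums and calls were run on simulated Poisson counts with no variation between cells, animals or libraries. That run checks the code and says nothing on the spread of real libraries. The members, gene lists and comparisons were chosen with earlier results of these data known. All members were named in every class, and of each list those past the fold with the largest differences. Motifs were searched in RefSeq promoters of GRCm38.p6. Python 3.11.15 with numpy 2.4.6, scipy 1.17.1 and matplotlib 3.10.9 was used.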

Additional observations from a re-analysis of the deposited data

How the results depend on the processing

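Of 58 member differences past the fold, recomputed as 538 values under other choices, 26 no longer passed it and 2 changed direction. Both were Car3 in epithelial-like against dermal-like cells at P0, at 0.023 with clusters named against the median and 0.031 without the adipocyte-like cells. Of 165 recomputed counts 13 moved by over 1.5 times or, for a share, beyond its interval. With 1 CPM added in place of 10, the count past the fold was 4 in place of 2 for endothelial-like cells at P0 against E16.5, 3 in place of 1 for epithelial-like cells at E16.5 against E13.5 and 5 in place of 3 at P0 against E16.5. It was 2 in place of 1 for endothelial-like against dermal-like cells at E13.5 and 4 in place of 2 for epithelial-like against dermal-like cells at E16.5. The endothelial-like count at P0 against E16.5 was 1 with at least 2500 genes per cell and 1 without doublets. The epithelial-like count at E16.5 against E13.5 was 0 with each cell weighing the same and 2 with the set-aside clusters put back. The count for epithelial-like against dermal-like cells at P0 was 3 in place of 5 with naming against the median and 2 without the adipocyte-like cells. The shares of all genes past the fold under these other settings are not given here. These counts therefore cannot be read against a share and describe only how the calls moved. The share of P0 cells with an Adipoq UMI was 8.37% with at least 2500 genes and 2.96% after thinning. The cause of these changes was not tested. Leaving out the adipocyte-like cells, putting back set-aside clusters, leaving out mixed sub-clusters and leaving out single cells of 2 sub-clusters were choices made after seeing the data. With at least 2500 genes, Cebpb in dermal-like cells at P0 against E16.5 was -0.86, within the fold, and Fabp4 in endothelial-like against dermal-like cells at P0 was 0.99. The P0 dermal-like cells then numbered 406 in place of 2209. Adipocyte-like cells at P0 numbered 35 with at least 2500 genes, 44 without doublets and at resolutions 0.5 and 2, and 0 with naming against the median. At resolution 2, 19 cells at E13.5 also received that name, although no Adipoq UMI was counted at E13.5. No paired analysis was possible because each stage had 1 library.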

Other observations

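Pericyte-like cells at P0 also had member transcripts above the Schwann-like level. Fabp4 was at 711 CPM (672 to 752) in 242 cells, against 67.1 CPM (47.9 to 91.4) in Schwann-like cells, and UMIs were in 63.6% of the cells (51.6% thinned) against 31.3% (21.2% thinned). Lpl was at 194 CPM (174 to 216) and Pparg at 29.2 CPM (21.7 to 38.5). At E16.5 the pericyte-like levels were 23.0 CPM of Fabp4 and 47.0 CPM of Lpl in 180 cells. The 10 endothelial markers summed to 440 CPM in pericyte-like cells at P0 against 5604 CPM in endothelial-like cells. Esam alone gave 342 CPM against 775 CPM, and the other 9 were between 0.584 CPM (Tek) and 39.7 CPM (Flt1), with Cdh5 at 1.75 CPM against 521 CPM. Gpihbp1 was at 7.59 CPM against 1786 CPM. The part of endothelial transcripts in the pericyte-like levels was not tested.

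Cells of the lymphatic-like class at P0 (175 cells), which were also led by the condensate genes Bmp3, Sox18 and Inhba, had Cebpa at 202 CPM (179 to 228) and Cebpb at 120 CPM (102 to 140).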
